A study of Homo sapiens with 14 samples.

Results

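The 37 genes described here encode RNA polymerase I, the factors that bring it to the ribosomal DNA, and proteins that cut, modify and fold the ribosomal RNA. They were chosen by name, as every guide whose gene symbol is on a fixed list, and all were present in each screen. They are 37 of 19114 genes in the knockout library (148 of 76441 guides, 4 per gene) and 37 of 18886 genes in the activation library (111 of 56266 guides, 3 per gene). By role they were 5 polymerase subunits (POLR1A to POLR1E), 6 initiation factors (TAF1A to TAF1D, RRN3 and UBTF), 3 proteins of box C/D ribonucleoproteins (FBL, NOP56, NOP58) and 4 of box H/ACA ribonucleoproteins (DKC1, NOP10, NHP2, GAR1). A further 11 belong to the small subunit processome (HEATR1, WDR43, WDR75, UTP15, UTP18, UTP20, NOP14, IMP3, IMP4, BMS1, NAT10) and 4 to large subunit assembly (BOP1, PES1, WDR12, NOP2). The remaining members are the abundant nucleolar proteins NCL, NPM1 and DDX21, and HEATR3, an adaptor for the 5S ribonucleoprotein.

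RNA polymerase I transcribes 1 long precursor of the ribosomal RNAs in the nucleolus. UBTF and the promoter selectivity factor, of which TAF1A to TAF1D are subunits, mark the ribosomal DNA promoter, and RRN3 joins the polymerase to them. Small nucleolar ribonucleoproteins then guide methylation (box C/D) and pseudouridylation (box H/ACA) of the precursor, while the processome and the PES1, BOP1 and WDR12 complex carry out early steps of the small and large subunits. When these steps fail, the 5S ribonucleoprotein, which holds RPL5 and RPL11, can bind and inhibit the ubiquitin ligase MDM2. Oxaliplatin, a platinum drug for colorectal cancer, is known for disturbing the nucleolus, which is the reason for looking at these genes under the drug.

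The study grew 2 human colorectal cancer lines, RKO and SW620, in pooled genome-wide screens. Cells stably carried either Cas9 with the Brunello knockout guides or dCas9-VP64, which activates a promoter, with the Calabrese guides, after blasticidin and puromycin selection. In each line and library, guides were counted from genomic DNA at day 0, after 20 days without drug, and after 20 days of oxaliplatin. The drug was given to RKO at 1.9 µM, and to SW620 at 0.38 µM or, in a separate library, 0.5 µM. Each of the 14 conditions was 1 library, so no difference between conditions has a replicate check or a test, and the 3 or 4 guides of a gene share the same libraries and are not replicates of a condition.

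Raw totals ran from 3647823 reads (SW620 activation, untreated day 20) to 69526489 reads (SW620 knockout, day 0). The most abundant 1% of guides held 2.16% to 3.88% of the reads in the 8 libraries without drug, against 41.4% in the RKO knockout and 52.8% in the RKO activation library under oxaliplatin, 31.5% in the SW620 knockout library at 0.5 µM and 9.55% at 0.38 µM. Counts below are scaled to a common depth within each screen by the median ratio over guides. A gene's value is the median over its guides of the log2 fold between libraries, with 5 added to each scaled count, and a gene is called lower or higher where that median is at or past 1. The share of all measured genes called in the same way is given beside each count of members. Guides of the non-targeting controls had a median fold of 0.51 in RKO and 0.25 in SW620 over 20 days of untreated knockout growth, so these controls ended somewhat above the typical guide.

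Without drug, knockout of nearly the whole list was followed by loss of the guides from RKO. After 20 days 34 of the 37 members were lower than at day 0, while 11.6% of all genes were. Their median was -2.93 on the log2 scale against 0.09 over all 19077 genes. All 4 (or all used) guides lay below 0 for 32 of the 37 members, against 15.0% of all genes. The reads themselves show the depth of this loss. The median scaled count of a member guide was 183 at day 0 and 20.2 at day 20, against 266 and 268 over all guides. Member guides were thus already below the typical guide at day 0. Of the 148 member guides 28 (18.9%) had no read at day 20, against 1.85% of all guides. A fold against such low counts depends on the added constant.

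In the main scaling, lower members in RKO came from every role but that of HEATR3. The 5 polymerase subunits were all lower (median -2.79, from -4.28 for POLR1B, the second largest subunit, to -2.11 for POLR1E). Of the 6 initiation factors 5 were lower, led by TAF1B at -4.56, whose 4 guides went from scaled counts of 214, 529, 247 and 106 at day 0 to 10.1, 0, 5.05 and 0. The exception was TAF1D at -0.59, the accessory subunit of the same factor. The 3 box C/D proteins were lower, with NOP56 at -4.20, NOP58 at -3.91 and the methyltransferase FBL at -3.04.

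The box H/ACA proteins were split. DKC1, the pseudouridine synthase, had the lowest value of all members (-5.01), with 180, 335, 135 and 322 scaled counts at day 0 and 0, 24.5, 0 and 0 at day 20. NHP2 stood at -3.98 and NOP10 at -3.08, whereas GAR1, the fourth core protein of the same particle, stood at -0.71. The guides of GAR1 kept more of their reads, with 688, 671, 294 and 51.3 scaled counts at day 0 and 464, 369, 140 and 40.4 at day 20.

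All 11 processome members were lower, from IMP4 at -4.13 to UTP18 at -1.18 and BMS1, a GTPase, at -1.08. UTP15 and the acetyltransferase NAT10 stood at -3.50 and -3.49, IMP3 at -3.25 and UTP20 at -2.91. The large subunit proteins were lower too, with PES1 at -3.87, WDR12 at -3.66 and BOP1 at -3.53 close together and the methyltransferase NOP2 at -1.93. Among the abundant nucleolar proteins the helicase DDX21 lost every read: its 4 guides held 490 raw reads at day 0 and 0 at day 20, which is at least 171-fold lower when 3 counts over the gene are taken as the floor. NCL (nucleolin) stood at -2.93 and NPM1 (nucleophosmin) at -2.10. HEATR3 had a milder value of -0.94 and was, with TAF1D and GAR1, 1 of the 3 members not called. It passed the threshold with non-targeting guides as the scale (-1.43) and as the mean over guides (-1.11). Under the non-targeting scale TAF1D (-1.09) and GAR1 (-1.21) passed too, so that all 37 members were lower. In the main scaling the value nearest to the threshold on its other side was that of BMS1.

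The genes that work beside these members moved with them in RKO. Other subunits of RNA polymerase I, most of them shared with the other polymerases, were lower for 7 of 8 (median -2.50), other small subunit factors for 47 of 49, other large subunit factors for 55 of 61 and the RNA exosome, which trims the precursor, for 14 of 14 (median -2.83). Subunits found only in RNA polymerase III were lower for 9 of 11. These stand beside 11.6% of all genes.

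In SW620 the same knockout guides were lost far less over 20 days. Only 6 of the 37 members were called lower, beside 1.2% of all genes, although 36 of 37 had a median below 0 and 25 of 37 had every guide below 0 (10.5% of all genes). The member median was -0.60 against 0.04 over all genes. The 6 called members were NHP2 (-1.55), IMP3 (-1.44), TAF1C (-1.25), GAR1 (-1.09), NOP56 (-1.07) and IMP4 (-1.06). NHP2 guides went from 466, 918, 589 and 682 scaled counts to 112, 604, 182 and 249, so no guide was exhausted. IMP3, an early binder of the U3 particle, went from 566, 571, 660 and 372 to 226, 250, 120 and 122.

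**Figure D1:**
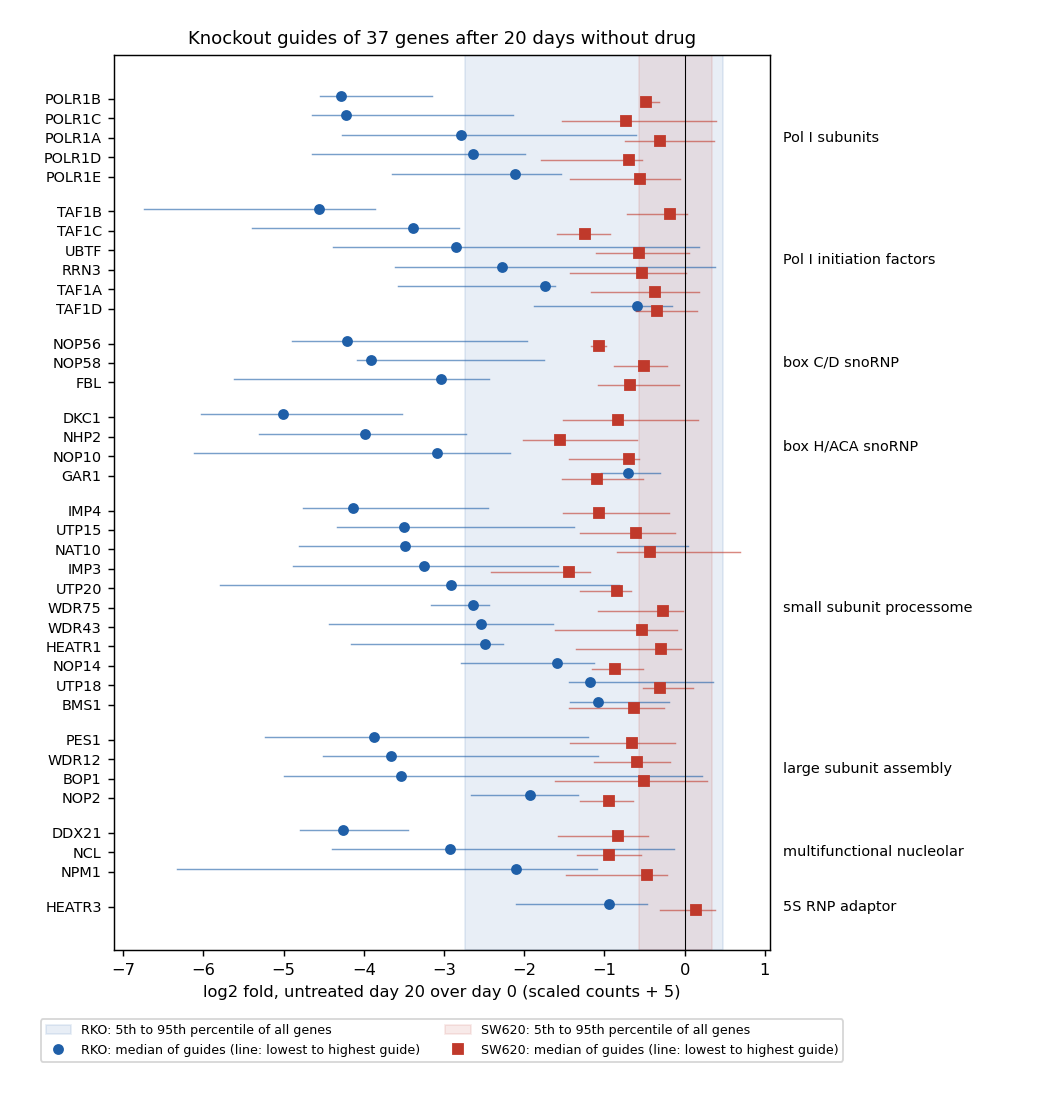
Each row is 1 gene, ordered by role; points are the median log2 fold of its knockout guides between untreated day 20 and day 0 in RKO (circles) and SW620 (squares), lines run from the lowest to the highest guide, and shaded bands hold the 5th to 95th percentile of all genes (-2.73 to 0.48 in RKO, -0.56 to 0.34 in SW620). Most circles lie left of -1 and most squares between -1 and 0, while the circles of TAF1D (-0.59), GAR1 (-0.71) and HEATR3 (-0.94) lie right of -1.

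Guide by guide, 31 of the 37 members were lower in RKO than in SW620 by 1 or more, beside 10.3% of all genes. The median difference of the members was -2.17, against 0.02 over 19076 genes. TAF1B differed most (-4.38, with -4.56 in RKO and -0.18 in SW620), followed by DKC1 (-4.18), POLR1B (-3.80) and DDX21 (-3.58). GAR1 alone differed the other way, by 0.41, with 2 of its 4 guides lower in RKO. Across the 37 members the values of the lines had a Spearman correlation of 0.25, and across 19076 genes of 0.34. Each line enters this comparison with a single pair of libraries, so line and library cannot be told apart. The lines also began from unlike levels at day 0. The median scaled count of a member guide there was 183 in RKO, against 266 over all guides. In SW620 it was 425, against 423 over all guides. The spread of all genes was also wider in RKO, as the shaded bands of the growth plot show.

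Under oxaliplatin the question was whether losing a member changed how cells came through the drug. In RKO many members had few reads in untreated day 20, and only 22 of 37 had enough guides for a comparison with it. A member whose guides were nearly gone without drug could enter only through its reads under the drug. For this reason the 8 of 22 members called higher (11.3% of all genes) and the 0 of 22 called lower (7.9% of all genes) are given for completeness and nothing is read from them. Summed over guides, 28 of 37 members (75.7%) had more scaled reads under the drug than without it, close to the 69.5% of all genes.

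Against day 0, which measured 36 of the 37 members, RKO cells under 1.9 µM oxaliplatin had still lost most of these guides. The count of members lower than day 0 was 33 of 36, beside 16.9% of all genes, with a median of -2.37, where untreated cells had 34 of 37 and -2.93. By role the medians under drug were -2.47 for the polymerase subunits, -2.08 for the initiation factors, -2.34 for box C/D, -2.68 for box H/ACA, -2.33 for the processome, -1.91 for large subunit assembly and -2.82 for NCL, NPM1 and DDX21. The lowest were HEATR1 (-3.06), NCL (-3.02) and NOP10 (-2.89). Under the drug 8 of the 148 member guides (5.41%) had no read, beside 0.854% of all guides. Without it 28 (18.9%) had none, beside 1.85% of all guides, so the share fell over the whole library as well.

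Some members that looked higher under the drug were low in both libraries. NOP56 stood at 2.40 against untreated day 20 but at -2.24 against day 0, and TAF1B at 2.71 against untreated day 20 but at -2.23 against day 0. The scaled counts of TAF1B under the drug were 33.1, 381, 60.7 and 1.84, of which 1 guide carried most. WDR12 (1.60), POLR1B (1.50), PES1 (1.16), TAF1C (1.10) and FBL (1.04) were the other members past 1 against untreated cells, and all 5 lay between -2.47 and -1.94 against day 0. The medians of GAR1 and UTP18 under the drug lay near their day 0 level, at 0.09 and 0.14, where the separate untreated library had -0.71 and -1.18. For UTP18, a WD-repeat protein of the processome, 2 of 4 guides were above day 0, and for GAR1 4 of 4. The UTP18 guides split, from 396, 296, 198 and 184 scaled counts at day 0 to 160, 485, 147 and 845.5 under the drug.

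HEATR3 was the exception in RKO. Its guides were lost mildly without drug and gained strongly with it: the 4 guides had 212, 152, 113 and 314 scaled counts at day 0, 45.4, 58.4, 80.1 and 210 at untreated day 20, and 281, 936, 1950 and 3450 under oxaliplatin. Each of the 4 guides was higher under the drug than in both other libraries. HEATR3 helps to carry RPL5 to the nucleus and to build the 5S ribonucleoprotein. Its median was 3.95 against untreated day 20 (guides from 2.50 to 4.52), the 37th highest of 18441 genes, and 3.01 against day 0, the 44th highest of 19080. It was the 1 member of 36 called higher than day 0, beside 9.61% of all genes. The summed reads gave 4.07 against untreated cells, with an exact 95% interval of 3.94 to 4.20 that covers counting error only, since reads amplified without molecular identifiers are not independent molecules. Under the drug these guides lay between the 5th and the 95th percentile of the non-targeting controls (263 and 3783 scaled counts), as the plot of its guides shows. All 4 lay below the range of the controls at day 0 and at untreated day 20. So did the median over all guides, at 266 and 268 against 5th percentiles of 323 and 389, so this is not particular to HEATR3. As folds over untreated day 20, the controls had a 95th percentile of 1.96, below each HEATR3 guide.

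In SW620 the guides of HEATR3 were also higher at the lower dose. The scaled counts were 296, 153, 202 and 419 at day 0, 238, 156, 241 and 548 at untreated day 20, and 1189, 581, 792 and 561 at 0.38 µM. Thus 3 guides gained clearly and the fourth stayed level (0.03). The median was 1.78, the 52nd highest of 19093 genes, and it was 1.92 against day 0. At 0.5 µM the guides scattered, with scaled counts of 376, 202, 7.88 and 63.1. The median there was -1.33 with 2 guides above and 2 below untreated cells, so the higher dose did not show what the lower one did.

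**Figure D2:**
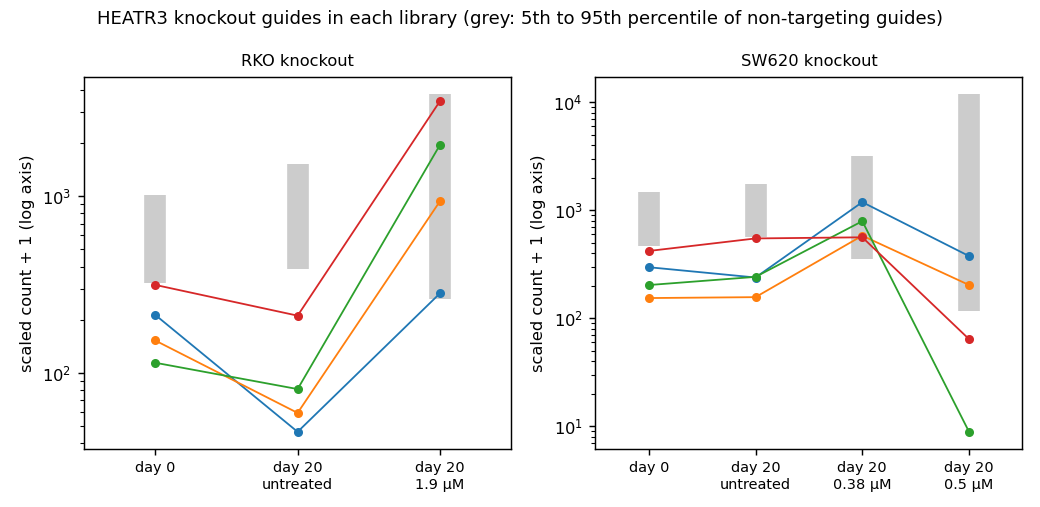
Each coloured line is 1 of the 4 HEATR3 knockout guides, drawn as its scaled count plus 1 on a log axis in each library of RKO (left) and SW620 (right), with grey bars from the 5th to the 95th percentile of the non-targeting controls. In RKO all 4 lines climb from untreated day 20 to 1.9 µM oxaliplatin, and in SW620 3 of 4 climb at 0.38 µM, while at 0.5 µM they spread from 7.88 to 376.

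Values of the partners of HEATR3 in the 5S ribonucleoprotein, and of genes on the arm that it controls, are given gene by gene. These genes have unlike roles, so no shared direction was looked for. In RKO knockout guides of CDKN1A, an inhibitor of cyclin-dependent kinases, stood at 11.11 against untreated day 20, with 4 of 4 guides above 0. That value ranked 2 from the top of 18441 genes. MDM4, a relative of MDM2, stood at -1.28. RPL5 and RPL11 had too few reads at untreated day 20 (-3.53 and -3.49 against day 0) and remained low under the drug, at -1.64 and -1.95 against day 0. MDM2 was at -2.03 without and -2.51 with drug against day 0, with 1 guide at 5.35. In SW620 at 0.38 µM CDKN1A stood at -0.10, with 2 of 4 guides above 0. RPL5 and RPL11 were at -0.07 and 0.31 there, so neither accompanied HEATR3 at 1.78.

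At 0.38 µM the other members of SW620 spread in both directions, with some polymerase and processome genes far below untreated cells. There were 9 of 37 members lower (8.57% of all genes) and 3 higher (4.98% of all genes), with a median of -0.40 against 0.04 over all genes. POLR1C, a subunit shared by RNA polymerases I and III, was the fifth lowest of 19093 genes at -4.14. Its 4 guides had 237, 102, 184 and 65.3 scaled counts without drug and 5.98, 33.3, 1.71 and 0 with it, all below. Summed reads gave -3.84, with an exact 95% interval of -4.29 to -3.42 for counting error. POLR1A, the catalytic subunit, was at -2.40 with 4 of 4 guides below 0 (430, 136, 324 and 133 to 113, 13.7, 103 and 3.42). The other subunits did not follow: POLR1D was at -0.55, POLR1B at -0.42 and POLR1E at 0.28. Of 11 subunits specific to RNA polymerase III 1 was lower, and of 8 other subunits of RNA polymerase I 1 was lower.

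IMP3 stood at -2.77, with 3 of 4 guides below 0. NOP56 (-2.00), UBTF (-1.56, 4 of 4 guides below 0), NOP10 (-1.41), TAF1A (-1.18), FBL (-1.16) and HEATR1 (-1.07, 4 of 4) were the other lower members. After HEATR3 the higher ones were IMP4 (1.20) and NOP14 (1.07), both processome proteins. Both fell below the threshold with non-targeting scaling (0.95 and 0.82) and against day 0 (0.56 and 0.27). IMP4 guides were higher in 4 of 4, at 382, 163, 128 and 460 scaled counts without drug and 759, 443, 913 and 903 with it. NCL (0.95), DDX21 (0.87) and NPM1 (0.80) came next, each with 3 of 4 guides above 0, so the 3 abundant nucleolar proteins lay together just short of the threshold. Against day 0 these 3 lay near 0, from -0.29 to 0.27 with a median of 0.20. IMP3 and IMP4, which join the same U3 particle, thus took opposite signs.

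At 0.5 µM, more genes of every kind passed the threshold. There were 19 of 37 members lower, beside 30.4% of all genes, and 3 higher, beside 25.1% of all genes, with a median of -1.02 against -0.09. Lowest were UTP15 (-3.26), POLR1C (-2.63) and NOP2 (-2.53), and highest NHP2 (1.97), UTP18 (1.80) and WDR12 (1.72). These 3 highest values lay below the 95th percentile of all genes (2.33). With non-targeting scaling UTP18 (0.83) and WDR12 (0.76) fell below the threshold and NHP2 stood at 1.003. Against day 0 NHP2 was at 0.41, UTP18 at 1.38 and WDR12 at 1.35. POLR1C was again below untreated cells with 4 of 4 guides, at 23.6, 28.9, 36.8 and 0 scaled counts (9, 11, 14 and 0 raw reads). POLR1A was not uniform, with 578, 5359, 21.0 and 0, where a single guide held 5359. NHP2 guides, at 112, 604, 182 and 249 without drug, were at 294, 6862, 683 and 1048, and those of WDR12 at 1153, 468, 546 and 730 from 176, 202, 222 and 159. The 3 nucleolar proteins that were near 1 at the lower dose were at -2.26 (DDX21), -1.83 (NPM1) and -1.29 (NCL). Both doses are compared with the same untreated library, so their values are set side by side and no overlap is drawn from them.

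Against day 0, which adds the loss during growth, 18 of 37 members were lower at 0.38 µM (10.5% of all genes) and 24 of 37 at 0.5 µM (31.2% of all genes). The medians were -0.92 and -1.61, where untreated cells had -0.60. POLR1C was at -4.24 and -3.31, IMP3 at -4.15 and -3.77, and HEATR1 at -1.84 and -3.09. Other factors of both subunits had similar counts, with 23 of 49 (small) and 25 of 61 (large) lower at 0.38 µM, and 34 of 49 and 45 of 61 at 0.5 µM.

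**Figure D3:**
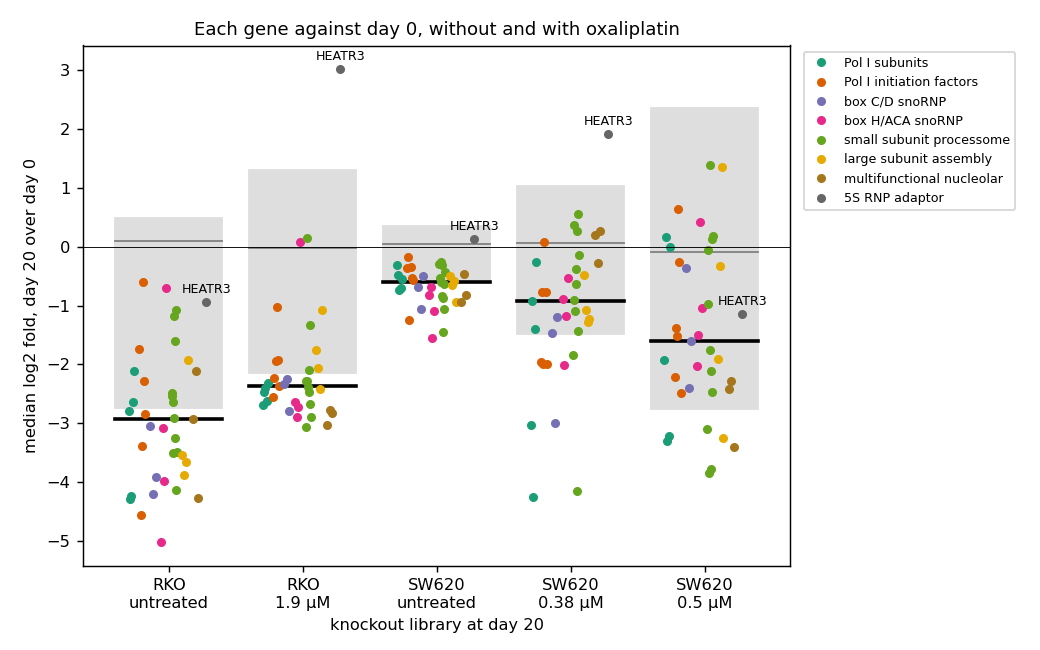
Each point is the median log2 fold of 1 member's knockout guides between a day 20 library and day 0 of the same screen, coloured by role; grey boxes hold the 5th to 95th percentile of all genes with their median as a thin line, and thick black lines are the member medians (-2.93, -2.37, -0.60, -0.92 and -1.61 from left to right). HEATR3 stands above all other members at 1.9 µM in RKO (3.01) and at 0.38 µM in SW620 (1.92), and not at 0.5 µM (-1.15).

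Guides meant to activate these genes mostly kept their numbers during growth; expression itself was not measured. In untreated activation screens 1 of 37 members was lower in RKO, beside 0.724% of all genes, and 1 of 37 in SW620, beside 0.389% of all genes. None was higher in either line, and no gene of the whole library was. Medians were 0.02 in RKO and 0.09 in SW620, against 0.02 and 0.01 over all genes. Apart from UBTF and WDR43, the guides of enzymes, polymerase subunits and assembly factors stayed near those of other genes, with 35 members between -0.40 and 0.52 in both lines.

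The member lower in both lines was UBTF, the factor that binds along the ribosomal DNA and bends it. In RKO its 3 activation guides went from 320, 260 and 241 scaled counts at day 0 to 197, 16.1 and 39.7, a median of -2.46 and the 10th lowest of 18777 genes. Summed reads gave -1.70, with an exact 95% interval of -1.84 to -1.56. In SW620 the 3 guides went from 241, 233 and 136 to 178, 101 and 62.3, a median of -1.07 and the 63rd lowest, with summed reads at -0.84 (-1.13 to -0.56) and the mean over guides at -0.89, short of the threshold. The untreated SW620 library is the shallowest, and these guides had 60, 34 and 21 raw reads in it. In all, 15 of 18776 genes (0.0799%) were lower in both lines. The lines number their activation guides differently, so guides were not matched between them.

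WDR43, a processome protein, was next, and its values were short of the threshold in both lines. The RKO value passed it with non-targeting scaling (-1.04) and with a pseudocount of 1 (-1.005). Its guides went from 266, 347 and 346 to 158, 172 and 98.9 scaled counts in RKO (median -0.99) and from 191, 257 and 215 to 190, 122 and 128 in SW620 (median -0.73). The first SW620 guide was level (-0.01), and the other five guides of both lines were lower. Knockout of both genes was also followed by loss in RKO, with UBTF at -2.85 and WDR43 at -2.54, and less so in SW620 (-0.57 and -0.53). Other genes of the pathway were not called in either untreated activation screen, apart from 1 of 9 measured subunits of RNA polymerase III in RKO.

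**Figure D4:**
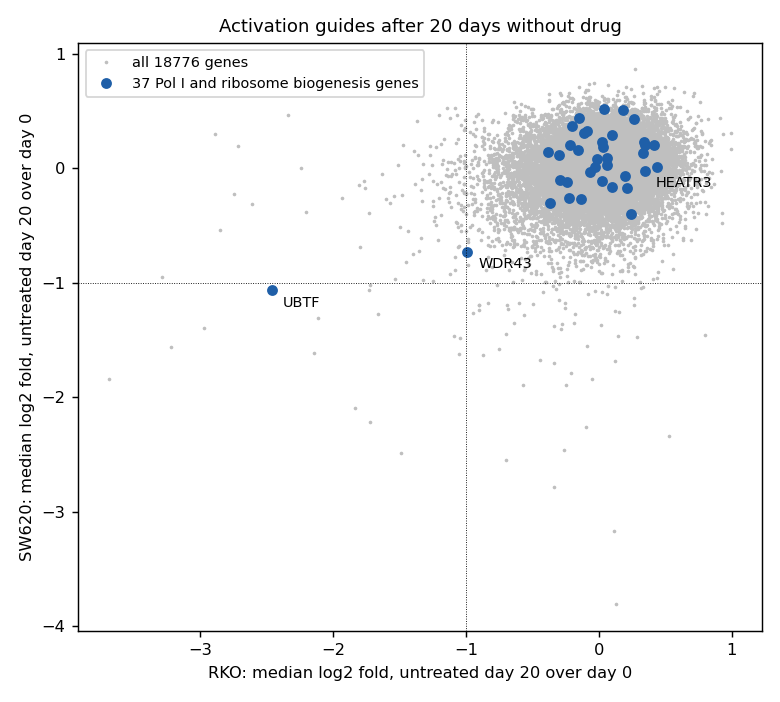
Each point is 1 gene, placed by the median log2 fold of its activation guides between untreated day 20 and day 0 in RKO (horizontal) and SW620 (vertical); grey points are all 18776 genes, blue points the 37 members, and dotted lines mark -1. UBTF, at -2.46 and -1.07, is the only member in the lower left corner, WDR43 lies near it and the others, HEATR3 included, sit in the cloud.

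Activation guides act near a transcription start, so the promoters of these genes are part of what the screen touched. The 250 bases before the start of UBTF and WDR43, the members lowest in both activation screens, are shown from RefSeq (GRCh38.p14), 5′ to 3′ on the gene's strand, with GC boxes (GGGCGG, or CCGCCC on the other strand, overlapping copies joined) in capitals. The UBTF window is chr17:44220883-44221132 on the minus strand and holds 7 GC boxes, and the WDR43 window is chr2:28894417-28894666 on the plus strand and holds 3.
UBTF: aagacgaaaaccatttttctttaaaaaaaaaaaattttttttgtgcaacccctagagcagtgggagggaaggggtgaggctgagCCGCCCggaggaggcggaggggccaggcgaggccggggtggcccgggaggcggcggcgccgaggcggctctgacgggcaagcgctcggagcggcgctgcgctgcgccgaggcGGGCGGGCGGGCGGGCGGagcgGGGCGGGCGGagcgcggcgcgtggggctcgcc
WDR43: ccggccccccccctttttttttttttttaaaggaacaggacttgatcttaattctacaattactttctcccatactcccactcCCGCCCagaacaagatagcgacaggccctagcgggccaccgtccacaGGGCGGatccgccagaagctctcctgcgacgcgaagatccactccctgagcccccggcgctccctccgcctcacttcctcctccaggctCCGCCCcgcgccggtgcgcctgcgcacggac
Of the 37 members 33 had an entry among 27305 promoters of this length. On either strand a GC box was present in 20 of 33 (60.6%) against 42.3% of all promoters, a CCAAT box (CCAAT) in 14 of 33 (42.4%) against 33.0%, and an E-box (CACGTG) in 5 of 33 (15.2%) against 6.49%. Neither printed window holds a CCAAT box or an E-box in these letters. A match is a description of the letters, and the start sites that the guides were designed against are not given in the sources used here.

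Under oxaliplatin the activation guides of members scattered as those of other genes did. In RKO 17 of 37 members were lower, beside 47.2% of all genes, and 7 higher, beside 25.9% of all genes, with a median of -0.90 against -0.80. The balance turned with the scaling: 31 were lower and 2 higher with non-targeting guides as the scale, and 11 lower and 14 higher in the authors' normalized table, so the signs of single members here are those of the main scaling. In that library 15 of the 111 member guides (13.5%) had no read, as did 14.3% of all guides. Non-targeting guides had a median fold of 2.25 there. The 5 polymerase subunits were all lower, from -3.08 for POLR1D to -1.57 for POLR1E, where 47.2% of all genes were. Lowest were NOP56 (-5.24) and NOP14 (-4.80). The 3 guides of NOP14 went from 182, 333 and 399 scaled counts to 7.16, 7.16 and 0. These last were 1, 1 and 0 raw reads, in a library with a median of 21 raw reads per guide. For NOP56 2 guides had no read and the other went from 156 to 2418 scaled counts. Highest were IMP4 (4.49), UBTF (3.52), FBL (3.09), NCL (2.92) and NAT10 (2.16). NCL was higher with 3 of 3 guides, at 311, 161 and 241 without drug and 565, 3055 and 1853 with it. For IMP4 2 guides held 6403 and 14370 and the other none.

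In SW620 the drug counts of members were near the background as well. At 0.38 µM 4 of 37 were lower (10.8% of all genes) and 4 higher (8.8% of all genes), and at 0.5 µM 4 were lower (15.2% of all genes) and 3 higher (12.4% of all genes). NPM1 was the lowest member at both doses, at -3.26 and -2.24. The value rests on 2 guides, which had 119 and 166 scaled counts without drug, 3.17 and 23.3 at 0.38 µM and 7.91 and 68.5 at 0.5 µM. The third had 3 raw reads without drug and was left out; with it the medians were -2.60 and -1.22. At 0.38 µM NPM1 was the 17th lowest of 18767 genes, and it was at -3.03 against day 0. POLR1A (-2.23, 1 of 3 guides above 0), DDX21 (-1.29) and BMS1 (-1.18) were the others lower at 0.38 µM, and PES1 (-2.19), BOP1 (-1.11) and TAF1D (-1.06) at 0.5 µM. NOP56 was higher at both doses (1.42 and 1.68), NHP2 (1.35) and HEATR1 (1.02) at 0.38 µM and IMP3 (1.17) at 0.5 µM. HEATR3 was at 0.30 and 0.04 in SW620 when activated. In RKO it had no settled direction, at 0.51 in the main scaling, -1.74 with non-targeting scaling and 1.29 in the authors' normalized table.

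The median of UBTF activation guides was higher under the drug than in untreated cells of both lines, and the comparison with day 0 shows what this rests on. Against untreated day 20 UBTF was at 3.52 in RKO and at 1.44 and 1.04 in SW620. The RKO value was 1.44 with non-targeting scaling and 0.70, below the threshold, as the mean over guides. Against day 0 it was at -0.14 in RKO, 1.01 at 0.38 µM and -0.03 at 0.5 µM. In RKO its guides had 0, 236 and 673 scaled counts under the drug, so the guide that had kept most reads without drug had none with it. In SW620 they had 491, 572 and 68.2 at 0.38 µM and 520, 152 and 133 at 0.5 µM.

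**Figure D5:**
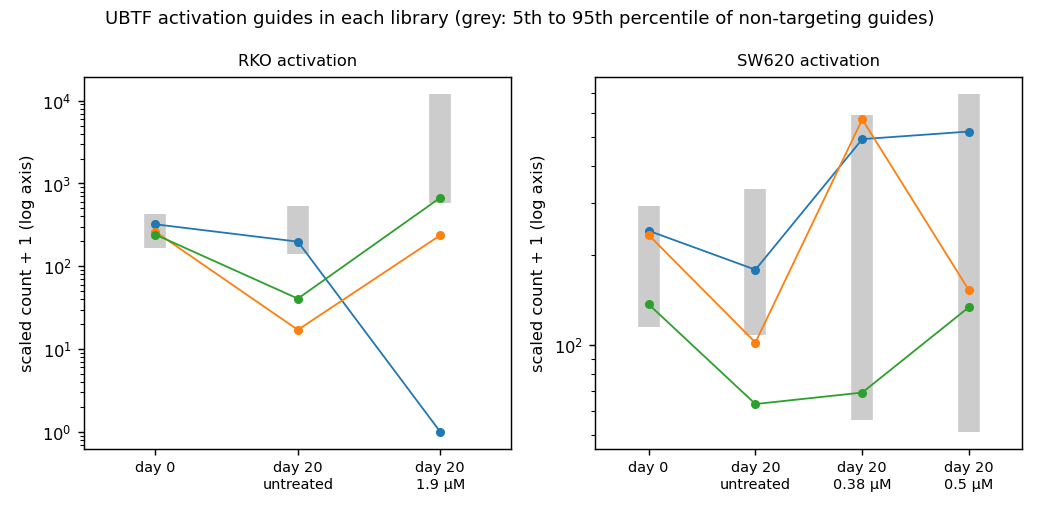
Each coloured line is 1 of the 3 UBTF activation guides, as its scaled count plus 1 on a log axis in each library of RKO (left) and SW620 (right); grey bars run from the 5th to the 95th percentile of the non-targeting controls. All 3 lines go down from day 0 to untreated day 20 in both lines; under oxaliplatin 2 of 3 are above untreated in RKO and 1 has no read, and in SW620 3 of 3 are above untreated at both doses.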

How the data were processed

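Guide abundance was sequenced from genomic DNA in 14 samples, 1 per condition, grouped by their titles. The authors deposited raw counts per guide, and a second table of normalized signal, which the values show to be the deposited count times 1 constant per library. The tools named in the submitters' processing notes are MAGeCK 0.5.7 and cutadapt 4.0; their roles, and the method behind the constants, are not given in the sources used here. All columns matched a sample by name, and 0 were left over.

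From the counts, median-ratio size factors were computed per screen, guides with a mean scaled count under 20 in the libraries compared were left out, and log2 folds were taken with a pseudocount of 5. A gene needed 3 knockout or 2 activation guides, and its value is their median. Calls were set at a log2 value of 1. Summed counts have exact conditional binomial 95% intervals. With 1 library per condition no test between conditions exists, and none was run. The calculation was tested on simulated counts, drawn around day 0 levels with counting noise only, to see whether known folds were recovered. These counts lacked the concentration of reads in few guides seen under the drug. The simulation therefore does not bear on how reliable the calls under the drug are. Python 3.11.15 with numpy 2.4.6, pandas 2.3.3, scipy 1.17.1 and matplotlib 3.10.9 was used.

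Members, lists of related genes and the rule for named genes were chosen with earlier results of these data known. The rule names members by role group; it gives guide counts for the 3 highest and 3 lowest in a knockout comparison, and for HEATR3, and names up to 5 called members per direction in an activation comparison. POLR1A in SW620, GAR1, UTP18, DDX21, WDR43 and IMP4 guide counts, and the values of RPL5, RPL11, MDM2, MDM4 and CDKN1A, were added after their values were seen. Results for 1 gene are not reported here. Other scalings, a pseudocount of 1, no count filter, the mean over guides and day 0 as the control were tried as alternatives. The symbols are those of the files. Guide sequences were not used here. Promoters come from RefSeq, GRCh38.p14.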

Additional observations from a re-analysis of the deposited data

Results flagged for a closer look

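Relative to untreated day 20, some knockout medians under oxaliplatin had opposite signs in RKO and in SW620 at a given dose. These differences rest on 1 library per condition and were not tested. HEATR3 stood at 3.95 in RKO and at -1.33 in SW620 at 0.5 µM, a difference of 5.28, while at 0.38 µM it was higher in both lines. NOP56 had differences of 4.40 at 0.38 µM and 3.75 at 0.5 µM, and FBL of 2.19 at 0.38 µM. Nothing is read from the differences of NOP56 and FBL: in RKO they reached the minimum of 3 guides only through guides with few or no untreated reads that passed the count filter by their reads under the drug. Against day 0 both were low in RKO, at -2.24 and -2.34.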

How the results depend on the processing

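Of 96 counts of members recomputed under other settings, 77 stayed within 1.5 times the main count and 19 did not. The 256 values of single genes were labelled by another rule, with 168 same, 84 moved and 4 reversed. Same does not mean within 1.5 times there, and some values labelled moved also changed sign. HEATR3 in SW620 knockout growth, for example, went from 0.137 to -0.123 with non-targeting scaling. The counts of lower members in RKO knockout growth (34) and of the line difference (31) were among those within 1.5 times under every setting run on them; the authors' table was not applied to the line difference. With non-targeting guides as the scale, the median of all genes shifted by -0.50 in RKO and -0.26 in SW620 knockout growth, -0.24 in RKO, -0.25 at 0.38 µM and -0.95 at 0.5 µM under the drug, and -2.17 in RKO activation under the drug. Under that scale 37 members were lower in RKO growth (34 in the main setting) and 12 in SW620 growth (6). In RKO knockout under the drug 2 were lower (0) and 2 higher (8), in SW620 1 was higher at 0.38 µM (3) and 1 at 0.5 µM (3), and in RKO activation under the drug 31 were lower (17) and 2 higher (7). The authors' table shifted all genes of that last comparison by 0.77 and gave 11 lower and 14 higher; the mean over guides shifted them by 0.15. In untreated RKO activation 2 members were lower (1) with non-targeting scaling, with a pseudocount of 1 and with the mean. The mean gave 0 lower in untreated SW620 activation (1), 2 higher in SW620 activation at 0.38 µM (4) and 1 lower in RKO knockout under the drug. With day 0 as the control 33 members were lower and 1 higher in RKO knockout under the drug, and 18 lower and 1 higher in SW620 at 0.38 µM. The 4 values labelled reversed, all with day 0 as control, were NOP56 (-2.24) and TAF1B (-2.23) in RKO knockout and UBTF activation in RKO (-0.14) and in SW620 at 0.5 µM (-0.0301). The causes were not tested. No paired analysis was possible because each condition is 1 library. Low counts limit the RKO knockout comparison with untreated day 20, where a member guide had a median of 20.2 scaled reads, and RKO activation under the drug, where 13.5% of member guides had none.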
